A study of Mus musculus with 10 samples.

Results

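Fatty acid oxidation and lipid handling were followed through 38 named genes of mouse kidney, picked by symbol out of a table of 55359 genes. They cover the carnitine shuttle, the enzymes of mitochondrial beta-oxidation and its electron carriers, acyl-CoA synthetases and thioesterases, 1 ketone body enzyme, 3 transcription regulators and 6 genes of lipid uptake, storage and lipolysis. Messenger RNA of mouse kidney had been sequenced in 10 libraries: 5 of control mice after sham surgery, and 5 of male mice after renal ischaemia lasting 30 min with reperfusion for 24 h (IRI). The sources used here do not give strain, age or diet, the sex of the sham mice, whether 1 or both kidneys were clamped, or the time from sham operation to sampling. No label says that each library came from its own mouse, so the p-values reflect only how far these libraries spread, which may be technical.

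Fatty acids enter cells through carriers such as CD36 or after lipoprotein lipase has freed them from lipoproteins. They are activated to acyl-CoA, and then are either stored as triglyceride in lipid droplets or passed into mitochondria by the carnitine shuttle. There each turn of beta-oxidation takes a dehydrogenase, a hydratase, a second dehydrogenase and a thiolase, and hands electrons to the electron transfer flavoprotein. The proximal tubule of the kidney lives largely on this pathway, whose genes are driven by the nuclear receptor PPARA with its coactivator PGC-1alpha and by the oestrogen-related receptor ESRRA.

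Transcripts of the oxidation pathway were mostly lower after IRI, while the lipid droplet coat gene Plin2 was much higher. By edgeR's quasi-likelihood test on counts, 28 of the 38 genes were lower at a Benjamini-Hochberg adjusted p under 0.05, 5 were higher and 5 were not called. Over all 13324 genes tested, 32.4% were called lower and 34.5% higher, 66.9% in all. These counts were scaled with TMM factors, which allow for a shift in library composition. With library totals as the only scaling, 25 of the 38 genes were lower (23.6% of all genes) and 7 higher (47.4%), and the median of all genes moved from 0.05 to 0.30. The median log2 fold change was -0.91 over the 38 genes and 0.05 over all genes tested. At least 2-fold, 18 of the 38 were lower (15.0% of all genes) and 3 higher (11.9%). In FPKM, which is scaled per exonic length and library total, 21 genes had every IRI library below every sham library (18.6% of all genes), 5 had every IRI library above (36.7%), and 12 overlapped. All 38 genes had at least 1 FPKM in every library, so none entered the test through 1 group alone.

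Together the 38 genes took 1.39% to 1.52% of all counts in the sham libraries and 0.558% to 0.772% in the IRI libraries. The order of levels was rearranged. In sham the medium-chain synthetase Acsm2 led with 719 ± 68.2 FPKM (SD, n = 5), followed by Acadm with 288 ± 42.4. Acadl, Etfa, Acot13, Acsm3, Lpl and Cd36 came next, at means of 151 to 192 FPKM, with SDs (6.71 to 35.8) as wide as the steps between most neighbours. In IRI Plin2 led with 373 ± 54.7 FPKM, and Acadl (171 ± 14.3) and Acsm2 (143 ± 80.3) followed, the last pair within each other's spread. Plin2 made up 0.480% to 0.594% of the counts of the 38 genes in sham and 16.4% to 21.4% in IRI. Acsm2 went from 33.7% to 40.4% down to 8.34% to 25.4%.

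**Figure D1:**
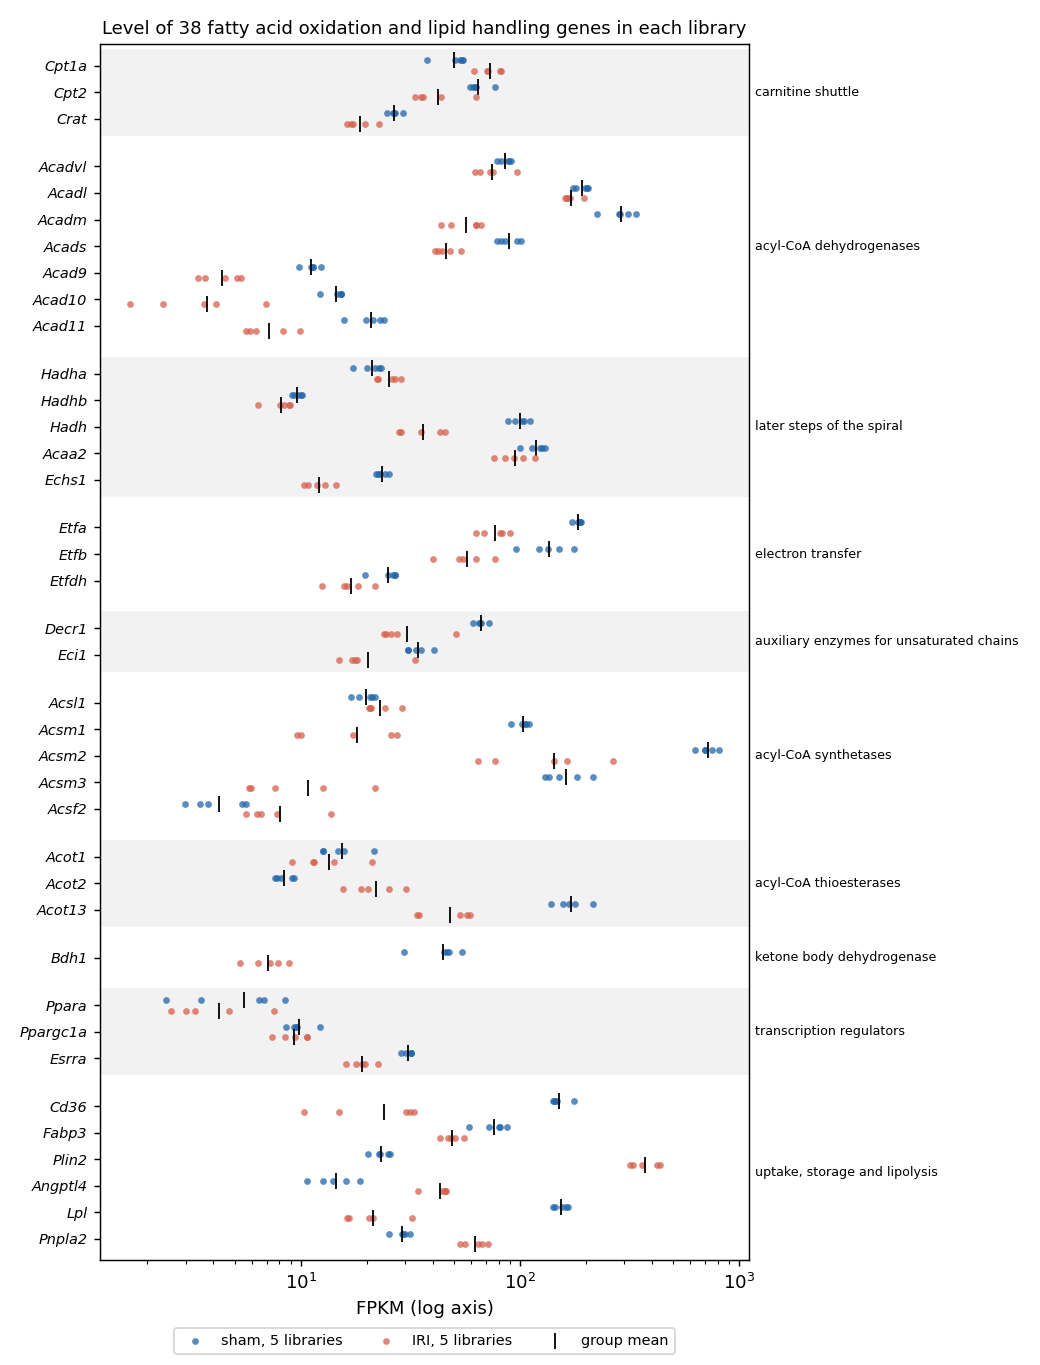
FPKM (log axis) of each of the 38 genes in 5 sham libraries (blue) and 5 IRI libraries (red), grouped by role, with the group mean as a black tick. Most enzymes lie lower in IRI, whereas Plin2 moves from 20.3 to 25.7 FPKM in sham to 317 to 437 FPKM in IRI.

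Library totals ran from 13147899 to 18603272 counts, and single counts of the 38 genes from 134 to 112238. All 12 markers of the proximal tubule were lower in IRI (median log2 fold change -2.68), and their summed level was 3469 to 4448 FPKM in sham and 271 to 1747 FPKM in IRI, with IRI replicate 1 highest. Of 6 thick ascending limb markers, 4 were lower and 2 higher (median -1.34). Of 4 distal convoluted tubule markers, 3 were lower and 0 higher (median -1.56). Collecting duct markers had 2 higher and 1 lower of 6 for principal cells, and 3 higher and 2 lower of 6 for intercalated cells. Endothelial markers summed to 59.3 to 78.9 FPKM in sham and 97.0 to 143 in IRI, with 5 of 7 higher and 1 lower. Mean Tek went from 8.96 to 6.86 FPKM. The 6 fibroblast and pericyte markers summed to 48.0 to 64.2 and 77.8 to 310.0 FPKM, with 3 higher and 0 lower. Mean Acta2 went from 21.1 to 98.7 FPKM and Tagln from 8.41 to 53.9. In IRI replicate 1, Col1a1, Col1a2 and Col3a1 (1.5, 1.29 and 1.88 FPKM) lay below all sham libraries. Markers of fat were low, and none of the 8 passed the filter. They summed to 0.0800 to 11.1 FPKM in sham and to 1.04 to 5.89 FPKM in IRI. Sham replicate 3 was highest, with Cfd at 7.14 FPKM there. The fat hormone gene Adipoq had 29 counts summed over sham and 3 summed over IRI, whereas Cidec, which encodes a lipid droplet protein, had 21 and 335 and made up 5.12 of the 5.89 FPKM in IRI replicate 2. Striated muscle markers summed to at most 0.360 FPKM, with Myh4 at 0 throughout. In whole-kidney RNA, fewer cells of a type and less RNA per cell cannot be told apart, and the part of the proximal tubule markers in the falls below was not tested. IRI replicate 1 stood apart from the other IRI libraries, where mitochondrial rRNA held 2.31% of counts, compared with 0.214% to 0.450%. Leaving it out changed no call among the 38 genes.

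The carnitine shuttle split. Cpt1a encodes the outer-membrane transferase that commits long-chain acyl groups to oxidation, and its levels were 54.9, 53.4, 54.5, 50.7 and 37.7 FPKM in sham replicates 1 to 5 and 71.1, 61.9, 71.3, 81.0 and 82.1 FPKM in IRI replicates 1 to 5. Every IRI library was above every sham library in FPKM, yet with TMM factors the log2 fold change of 0.29 ± 0.13 (SE) was not called (adjusted p = 0.0544, edgeR). It was called higher under library totals (0.55, adjusted p = 0.00192, edgeR), and without IRI replicate 2 (0.38, adjusted p = 0.0204) or IRI replicate 3 (0.34, adjusted p = 0.0471). So it was with a filter of 5 FPKM (0.33, adjusted p = 0.0343, edgeR) and by limma on log2(FPKM + 1) (0.54, adjusted p = 0.0017) or log2(FPKM + 0.1) (0.55, adjusted p = 0.00262). Cpt2, the inner-membrane transferase that restores acyl-CoA in the matrix, was at 62.2, 61.2, 59.5, 76.9 and 63.1 FPKM in sham replicates 1 to 5 and 43.5, 35.4, 63.2, 33.1 and 36.0 FPKM in IRI replicates 1 to 5. It fell by 0.86 ± 0.18 on the log2 scale (adjusted p = 0.00102, edgeR), with IRI replicate 3 alone among the IRI libraries reaching sham levels. Crat, which moves short acyl groups to and from carnitine, was at 26.6, 24.8, 26.4, 29.2 and 27.0 FPKM in sham replicates 1 to 5 and 19.7, 17.0, 22.7, 16.4 and 17.4 FPKM in IRI replicates 1 to 5. It was lower in every IRI library (log2 fold change -0.77 ± 0.11, adjusted p = 7.6e-05, edgeR).

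A ratio of 2 genes inside a library does not depend on the scaling between libraries. Such ratios, of counts per exonic length, were compared for 9 gene pairs by exact two-sided permutation tests over libraries with Benjamini-Hochberg adjustment. With 5 against 5 libraries the smallest p is 0.00794. The pairs were chosen with earlier results of these data known, and the ratios use the same counts as the tests of single genes. Their p-values are therefore no separate support for those tests. The ratio of Cpt1a to Cpt2 was -0.37 ± 0.28 in sham and 0.83 ± 0.44 in IRI (log2, SD, n = 5 each; adjusted exact permutation p = 0.0119). Cpt1a thus stood at a median of 0.874 times the level of Cpt2 in sham and 1.75 times in IRI, and the groups did not overlap.

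All 7 acyl-CoA dehydrogenases were lower in IRI, with a median log2 fold change of -1.59. The falls were unequal. Acadm, the medium-chain enzyme, had the largest: its levels were 282, 224, 287, 338 and 311 FPKM in sham replicates 1 to 5 and 63.1, 66.4, 63.4, 48.3 and 43.9 FPKM in IRI replicates 1 to 5. The highest IRI library lay at well under the lowest sham library, and the log2 fold change was -2.58 ± 0.17 (adjusted p = 2.34e-07, edgeR). Acadvl, which handles very long chains, was at 88.3, 81.8, 91.5, 89.1 and 78.9 FPKM in sham replicates 1 to 5 and 75.2, 62.4, 97.1, 73.2 and 66.0 FPKM in IRI replicates 1 to 5. Here the groups overlapped, with IRI replicate 3 above all sham libraries, and the log2 fold change was -0.45 ± 0.13 (adjusted p = 0.00739, edgeR). Acadl, for long chains, was likewise little lower (174 to 204 FPKM in sham, 161 to 196 in IRI; log2 fold change -0.42 ± 0.10, adjusted p = 0.00218, edgeR). Neither long-chain gene was called under library totals (Acadvl -0.20, adjusted p = 0.150; Acadl -0.17, adjusted p = 0.129, edgeR).

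The ratio of Acadvl to Acadm, taken from these same counts, was -1.74 ± 0.22 in sham and 0.39 ± 0.31 in IRI (log2, SD, n = 5 each; adjusted exact permutation p = 0.0119). Acadvl stood at a median of 0.313 times the level of Acadm in sham and 1.50 times in IRI. Acads, the short-chain enzyme, went from 88.9 ± 9.59 to 46.0 ± 5.21 FPKM (log2 fold change -1.20 ± 0.12). Acad10, a dehydrogenase fused to a kinase-like domain, was at 15.3, 15.2, 14.6, 15.2 and 12.2 FPKM in sham replicates 1 to 5 and 6.94, 3.61, 4.12, 1.66 and 2.35 FPKM in IRI replicates 1 to 5. Its IRI libraries lay below all sham libraries and varied the most among the 7 genes, with replicate 1 highest and replicate 4 lowest (log2 fold change -2.18 ± 0.33, adjusted p = 9.86e-05, edgeR). Acad11, of the same build, went from 20.8 ± 3.25 to 7.21 ± 1.85 FPKM (log2 fold change -1.77 ± 0.19). Acad9, known chiefly as an assembly factor of respiratory complex I, went from 11.2 ± 0.905 to 4.40 ± 0.856 FPKM (log2 fold change -1.59 ± 0.15; adjusted p for Acads, Acad9 and Acad11 from 2.19e-06 to 6.43e-06, edgeR).

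Of the enzymes that follow the first dehydrogenation, 4 were lower and 1 was not called. Hadha and Hadhb encode the 2 subunits of the mitochondrial trifunctional protein, which carries out the later steps for long chains. They lie head to head on chromosome 5, Hadha from 30323302 to 30360160 and Hadhb from 30360246 to 30389591 in the deposited coordinates (GRCm39), with 85 bases between them. Hadha was at 23.3, 20.1, 22.8, 21.9 and 17.3 FPKM in sham replicates 1 to 5 and 22.6, 22.4, 27.0, 26.0 and 28.8 FPKM in IRI replicates 1 to 5. Its groups overlapped slightly and its log2 fold change was 0.01 ± 0.10 (95% interval -0.21 to 0.24, adjusted p = 0.911, edgeR), though under library totals it was called higher (0.27, adjusted p = 0.0461, edgeR). Hadhb was at 9.13, 10.2, 9.68, 9.99 and 9.37 FPKM in sham replicates 1 to 5 and 6.38, 8.81, 8.92, 8.39 and 8.04 FPKM in IRI replicates 1 to 5. All of its IRI libraries lay below all sham libraries (log2 fold change -0.51 ± 0.08, adjusted p = 0.00019, edgeR).

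The ratio of Hadha to Hadhb was 1.11 ± 0.19 in sham and 1.65 ± 0.20 in IRI (log2, SD, n = 5 each; adjusted exact permutation p = 0.0204). Its median was 2.19 in sham and 3.10 in IRI, and IRI replicate 2 (1.345) lay just below sham replicate 1 (1.350). Of the 100-base stretches in Hadhb transcripts, 14.8% also occur in another gene, mainly Gm13910, and the part of such reads was not tested.

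Hadh, the 3-hydroxyacyl-CoA dehydrogenase for shorter chains, showed the largest fall of this step. It was at 111, 104, 94.9, 102 and 88.3 FPKM in sham replicates 1 to 5 and 43.2, 35.3, 45.7, 28.2 and 28.7 FPKM in IRI replicates 1 to 5. No IRI library came near the sham range, and the log2 fold change was -1.71 ± 0.17 (adjusted p = 3.83e-06, edgeR). Echs1, the short-chain enoyl-CoA hydratase, was at 25.3, 22.6, 23.1, 24.1 and 22.2 FPKM in sham replicates 1 to 5 and 14.4, 11.9, 12.9, 10.8 and 10.4 FPKM in IRI replicates 1 to 5. Its groups were likewise apart (log2 fold change -1.20 ± 0.12, adjusted p = 4.78e-06, edgeR). Acaa2, the matrix thiolase, ranged from 100.3 to 130.3 FPKM in sham and from 76.2 to 118 in IRI, with overlap (log2 fold change -0.57 ± 0.14, adjusted p = 0.00302, edgeR).

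All 3 electron transfer genes were lower. Etfa and Etfb encode the 2 subunits of the electron transfer flavoprotein, which takes electrons from the acyl-CoA dehydrogenases. Etfa was at 184, 187, 173, 188 and 189 FPKM in sham replicates 1 to 5 and 83.2, 81.5, 89.7, 68.8 and 63.3 FPKM in IRI replicates 1 to 5. Etfb was at 122, 134, 96.1, 151 and 176 FPKM in sham replicates 1 to 5 and 52.5, 62.9, 76.8, 54.9 and 40.0 FPKM in IRI replicates 1 to 5. Their log2 fold changes were close, -1.50 ± 0.12 for Etfa and -1.49 ± 0.19 for Etfb (adjusted p = 9.99e-07 and 3.05e-05, edgeR), and all IRI libraries lay below all sham libraries. The ratio of Etfa to Etfb was 0.47 ± 0.28 in sham and 0.45 ± 0.20 in IRI (log2, SD, n = 5 each; adjusted exact permutation p = 0.897), so no difference between the subunits was detected. Of the 100-base stretches of Etfb, 35.8% also occur in Gm45233, a gene model that overlaps it on the same strand and held means of 2.00 and 3.60 counts in sham and IRI.

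Etfdh encodes the oxidoreductase that passes these electrons on to ubiquinone. It was at 26.8, 27.0, 26.4, 24.9 and 19.8 FPKM in sham replicates 1 to 5 and 18.3, 12.5, 21.9, 16.3 and 15.8 FPKM in IRI replicates 1 to 5. It was lower with overlap between the groups (log2 fold change -0.81 ± 0.15, adjusted p = 0.000565, edgeR). The ratio of Etfa to Etfdh was 2.89 ± 0.22 in sham and 2.20 ± 0.29 in IRI (log2, SD, n = 5 each; adjusted exact permutation p = 0.0119), so Etfa fell more than Etfdh. The groups did not overlap, though IRI replicate 2 (2.70) came close to sham replicate 3 (2.71).

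The auxiliary enzymes for unsaturated chains were lower in 4 of the 5 IRI libraries by a wide margin and less so in replicate 3. Decr1, the 2,4-dienoyl-CoA reductase, was at 65.0, 66.7, 61.2, 72.2 and 65.8 FPKM in sham replicates 1 to 5 and 25.9, 24.6, 50.9, 27.4 and 23.9 FPKM in IRI replicates 1 to 5. Eci1, the enoyl-CoA isomerase, was at 30.8, 33.6, 31.1, 35.3 and 40.6 FPKM in sham replicates 1 to 5 and 17.2, 17.7, 33.1, 18.1 and 15.0 FPKM in IRI replicates 1 to 5. In both genes IRI replicate 3 was the highest IRI library, and for Eci1 it lay inside the sham range. The log2 fold change was -1.37 ± 0.20 for Decr1 (adjusted p = 6.89e-05, edgeR) and -1.01 ± 0.20 for Eci1 (adjusted p = 0.000635, edgeR).

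**Figure D2:**
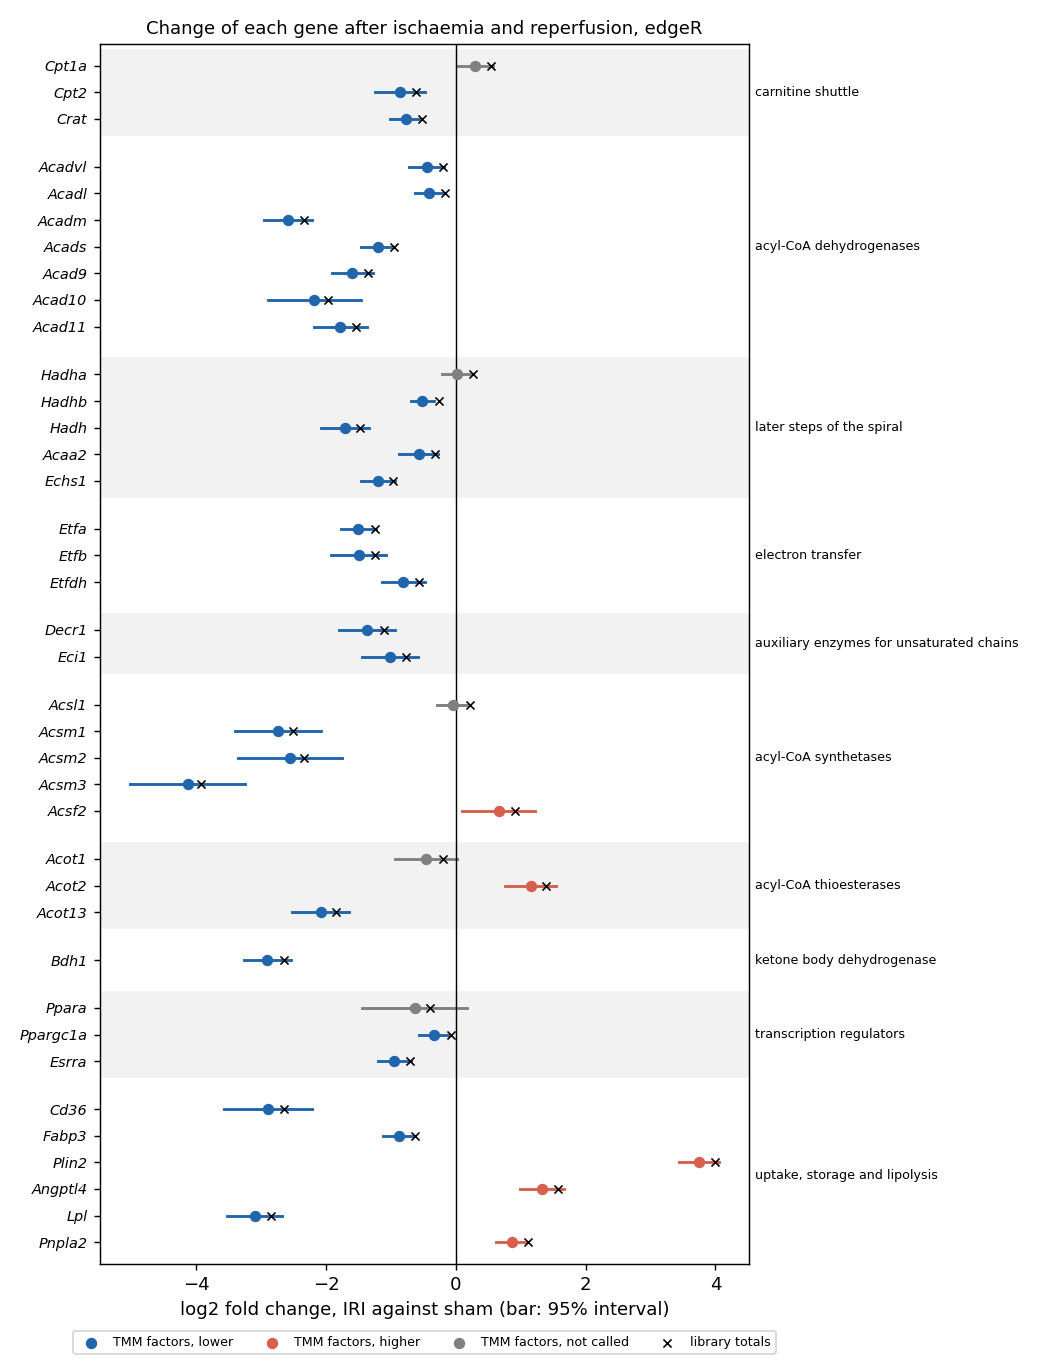
log2 fold change of each gene in IRI against sham by edgeR with TMM factors (circles; bars are 95% intervals; blue lower, red higher, grey not called) and with library totals (crosses). Acsm3 lies lowest at -4.13 and Plin2 highest at 3.75, and the crosses lie to the right of the circles throughout.

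Acyl-CoA synthetases, which activate fatty acids, ranged from a log2 fold change of -4.13 to 0.66, with 3 lower, 1 higher and 1 not called. Acsm1, Acsm2 and Acsm3 encode medium-chain enzymes and lie together on chromosome 7 in the deposited coordinates (GRCm39). Acsm2 runs from 119153563 to 119199913, Acsm1 begins 6335 bases further on, and Acsm3 another 98407 bases beyond Acsm1. Acsm3 was at 151, 136, 216, 181 and 130.3 FPKM in sham replicates 1 to 5 and 21.8, 12.7, 7.68, 5.79 and 5.95 FPKM in IRI replicates 1 to 5. All IRI libraries were below all sham libraries, replicate 1 highest among them, and the log2 fold change of -4.13 ± 0.41 was the largest fall of the 38 genes (adjusted p = 3.77e-06, edgeR). Acsm1 was at 102, 106, 90.8, 110.0 and 105 FPKM in sham replicates 1 to 5 and 25.8, 17.3, 27.6, 10.1 and 9.64 FPKM in IRI replicates 1 to 5. Its log2 fold change was -2.74 ± 0.30 (adjusted p = 8.82e-06, edgeR). Acsm2 went from 632 to 813 to 64.5 to 265 FPKM (log2 fold change -2.55 ± 0.37, adjusted p = 6.57e-05, edgeR).

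The spread of these 3 genes was far wider among IRI libraries than among sham libraries. Their coefficients of variation were 7.12%, 9.48% and 22.0% in sham for Acsm1, Acsm2 and Acsm3, and 46.7%, 56.2% and 62.8% in IRI. Proximal tubule markers also spread more widely in IRI (271 to 1747 FPKM), and their part was not tested. The sources used here do not say whether counting used strand. Without it, reads from bases that a gene shares with its antisense partner could be mixed or dropped. Gm19950, whose span overlaps that of Acsm1 on the opposite strand, had means of 4418 counts in sham and 579.8 in IRI, against 3568 and 636 for Acsm1. Of the 100-base stretches of Acsm1, however, 0% occur in another gene on either strand. Eri2, opposite to Acsm3, shares 27.8% of the 100-base stretches of Acsm3 and had means of 342 and 158 counts, against 12720.0 and 842 for Acsm3.

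Acsl1, the main long-chain synthetase, was at 18.6, 21.7, 20.7, 21.1 and 17.0 FPKM in sham replicates 1 to 5 and 20.8, 24.2, 20.9, 29.0 and 20.5 FPKM in IRI replicates 1 to 5. The groups overlapped, and its log2 fold change of -0.03 ± 0.12 was not called (95% interval -0.29 to 0.22, adjusted p = 0.808, edgeR; 0.22 under library totals, not called either). Acsf2, a mitochondrial synthetase for medium chains, was at 5.39, 5.62, 3.80, 2.96 and 3.46 FPKM in sham replicates 1 to 5 and 6.34, 5.61, 13.7, 7.78 and 6.63 FPKM in IRI replicates 1 to 5. It was called higher (log2 fold change 0.66 ± 0.26, adjusted p = 0.039, edgeR), but the groups overlapped and IRI replicate 3 was the highest. The call was lost without sham replicate 3, 4 or 5 (0.61, 0.55 and 0.59; adjusted p = 0.0803, 0.0958 and 0.0922, edgeR) or IRI replicate 3 (0.41, adjusted p = 0.0861, edgeR). Of the 100-base stretches of Acsf2, 19.0% also occur in Gm5540.

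Thioesterases, which release free fatty acids from acyl-CoA, moved in different directions. Acot13, a small thioesterase found with mitochondria, was at 157, 167, 138, 178 and 215 FPKM in sham replicates 1 to 5 and 57.6, 53.6, 59.4, 33.8 and 34.6 FPKM in IRI replicates 1 to 5. It was lower in every IRI library (log2 fold change -2.08 ± 0.20, adjusted p = 3.39e-06, edgeR). Acot2, the mitochondrial member of the Acot1 family, was at 9.10, 7.66, 8.10, 9.35 and 7.82 FPKM in sham replicates 1 to 5 and 30.1, 15.7, 25.3, 20.2 and 18.8 FPKM in IRI replicates 1 to 5. All IRI libraries lay above all sham libraries, and the log2 fold change was 1.15 ± 0.18 (adjusted p = 0.000143, edgeR). Acot1, its cytosolic neighbour, was at 14.8, 12.7, 12.7, 21.6 and 15.8 FPKM in sham replicates 1 to 5 and 11.5, 9.12, 21.1, 14.2 and 11.3 FPKM in IRI replicates 1 to 5. Its groups overlapped and it was not called (log2 fold change -0.46 ± 0.22, 95% interval -0.93 to 0.02, adjusted p = 0.0826, edgeR), except without IRI replicate 3, where it was lower (-0.64, adjusted p = 0.00732, edgeR).

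Acot2 and Acot1 lie in tandem on chromosome 12, Acot2 from 84034635 to 84040647 and Acot1 from 84056264 to 84065145 (GRCm39). The ratio of Acot1 to Acot2 was 0.86 ± 0.24 in sham and -0.73 ± 0.42 in IRI (log2, SD, n = 5 each; adjusted exact permutation p = 0.0119). Acot1 was the more abundant of the pair in all 5 sham libraries and Acot2 in all 5 IRI libraries, with median ratios of 1.65 and 0.603. These genes are near-identical in part. Stretches of 100 bases found in both make up 17.1% of those of Acot2, so reads there may have been split or dropped in counting, which was not tested.

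Bdh1, which interconverts the ketone bodies acetoacetate and 3-hydroxybutyrate in the mitochondrial matrix, was at 46.7, 29.5, 47.7, 54.2 and 45.3 FPKM in sham replicates 1 to 5 and 5.28, 8.88, 7.27, 7.85 and 6.40 FPKM in IRI replicates 1 to 5. The groups were far apart, with a log2 fold change of -2.90 ± 0.17 (adjusted p = 1.04e-07, edgeR). Here IRI replicate 1, highest for Acsm3, was the lowest library.

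Among the regulators, Esrra was lower and Ppara was not called. Esrra was at 31.9, 32.0, 28.6, 31.9 and 30.4 FPKM in sham replicates 1 to 5 and 22.6, 16.1, 19.7, 18.0 and 19.0 FPKM in IRI replicates 1 to 5. The groups did not overlap (log2 fold change -0.94 ± 0.12, adjusted p = 1.8e-05, edgeR). Ppargc1a, the coactivator gene, was at 9.58, 9.34, 12.3, 9.54 and 8.60 FPKM in sham replicates 1 to 5 and 7.40, 9.41, 8.45, 10.7 and 10.7 FPKM in IRI replicates 1 to 5. It was called lower by a small amount (log2 fold change -0.34 ± 0.11, adjusted p = 0.0136, edgeR), with overlapping groups, and not under library totals (-0.08, adjusted p = 0.571). Ppara was at 6.47, 8.48, 6.83, 3.50 and 2.42 FPKM in sham replicates 1 to 5 and 4.70, 3.31, 7.56, 3.01 and 2.56 FPKM in IRI replicates 1 to 5. Both groups varied widely (coefficients of variation 45.2% and 47.9%), and the log2 fold change of -0.63 ± 0.37 was not called (95% interval -1.44 to 0.17, adjusted p = 0.149, edgeR).

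Ppara was called lower without sham replicate 5 (-0.84, adjusted p = 0.0488) and without IRI replicate 3 (-0.91, adjusted p = 0.0394, edgeR). The ratio of Ppara to Ppargc1a was -0.96 ± 0.68 in sham and -1.24 ± 0.80 in IRI (log2, SD, n = 5 each; adjusted exact permutation p = 0.607).

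Of the 6 genes of uptake, storage and lipolysis, 3 were higher and 3 lower (34.5% and 32.4% of all genes). Plin2, which coats lipid droplets, lies on chromosome 4 from 86566623 to 86588297 (GRCm39) and was at 24.9, 22.8, 20.3, 25.7 and 23.0 FPKM in sham replicates 1 to 5 and 359.6, 424, 437, 329 and 317 FPKM in IRI replicates 1 to 5. The log2 fold change was 3.75 ± 0.14, about 13.4-fold (adjusted p = 8.13e-09, edgeR), and the lowest IRI library lay far above the highest sham library. Pnpla2, whose product ATGL starts the breakdown of droplet triglyceride, was at 29.5, 25.4, 29.9, 29.1 and 31.6 FPKM in sham replicates 1 to 5 and 67.2, 71.5, 56.3, 64.7 and 53.5 FPKM in IRI replicates 1 to 5. It was higher in every IRI library (log2 fold change 0.86 ± 0.11, adjusted p = 2.58e-05, edgeR). The ratio of Plin2 to Pnpla2 was -0.32 ± 0.18 in sham and 2.57 ± 0.23 in IRI (log2, SD, n = 5 each; adjusted exact permutation p = 0.0119), a rise of the coat gene over the lipase gene by 7.41-fold.

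Lpl, the lipase that frees fatty acids from circulating lipoproteins, showed the reverse. It lies on chromosome 8 from 69333143 to 69360100 (GRCm39) and was at 141, 144, 162, 156 and 167 FPKM in sham replicates 1 to 5 and 20.5, 32.3, 21.3, 16.6 and 16.3 FPKM in IRI replicates 1 to 5. The fall was the second largest of the 38 genes (log2 fold change -3.10 ± 0.20, adjusted p = 1.7e-07, edgeR), with IRI replicate 2 highest in its group. Angptl4, a secreted inhibitor of that lipase, was at 14.1, 12.7, 10.7, 18.7 and 16.2 FPKM in sham replicates 1 to 5 and 44.3, 45.7, 45.9, 45.5 and 34.3 FPKM in IRI replicates 1 to 5. It rose in every IRI library (log2 fold change 1.33 ± 0.16, adjusted p = 1.37e-05, edgeR). The ratio of Angptl4 to Lpl was -3.44 ± 0.32 in sham and 1.05 ± 0.34 in IRI (log2, SD, n = 5 each; adjusted exact permutation p = 0.0119). Angptl4 stood at a median of 0.0972 times the level of Lpl in sham and 2.16 times in IRI, a change of 22.4-fold and the largest of the 9 ratios.

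Cd36, a fatty acid translocase of the plasma membrane, was at 142, 148, 176, 145 and 144 FPKM in sham replicates 1 to 5 and 33.1, 30.1, 31.4, 10.4 and 15.0 FPKM in IRI replicates 1 to 5. All IRI libraries were below all sham libraries, with replicates 4 and 5 lowest (log2 fold change -2.88 ± 0.31, adjusted p = 7.13e-06, edgeR). Fabp3, which binds fatty acids in the cytosol, ranged from 58.7 to 86.9 FPKM in sham and from 43.2 to 55.7 in IRI (log2 fold change -0.88 ± 0.11, adjusted p = 2.65e-05, edgeR). Of its 100-base stretches, 21.7% also occur in the pseudogene Fabp3-ps1. Cd36, Lpl, Plin2 and Angptl4 are also expressed by fat, endothelial or blood cells. Fat markers summed to 0.0800 to 11.1 FPKM in sham, highest in sham replicate 3, and to 1.04 to 5.89 FPKM in IRI, as given above. Endothelial markers, 5 of 7 higher and 1 lower, summed to 59.3 to 78.9 FPKM in sham and 97.0 to 143 in IRI. The 8 macrophage and monocyte markers summed to 44.6 to 74.5 and 86.9 to 143 FPKM. Of 6 macrophage and monocyte markers tested, 2 were higher and 1 lower: mean Cd68 went from 2.48 to 22.0 FPKM and Cd14 from 2.50 to 30.3, while Csf1r went from 11.1 to 3.07. Neutrophil markers, 4 of 4 tested higher, summed to 0.940 to 3.27 FPKM in sham and 19.6 to 102 in IRI. Red blood cell markers, 3 of 5 higher, summed to 105 to 179 and 181 to 339.7 FPKM. The part of these cells was not tested.

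**Figure D3:**
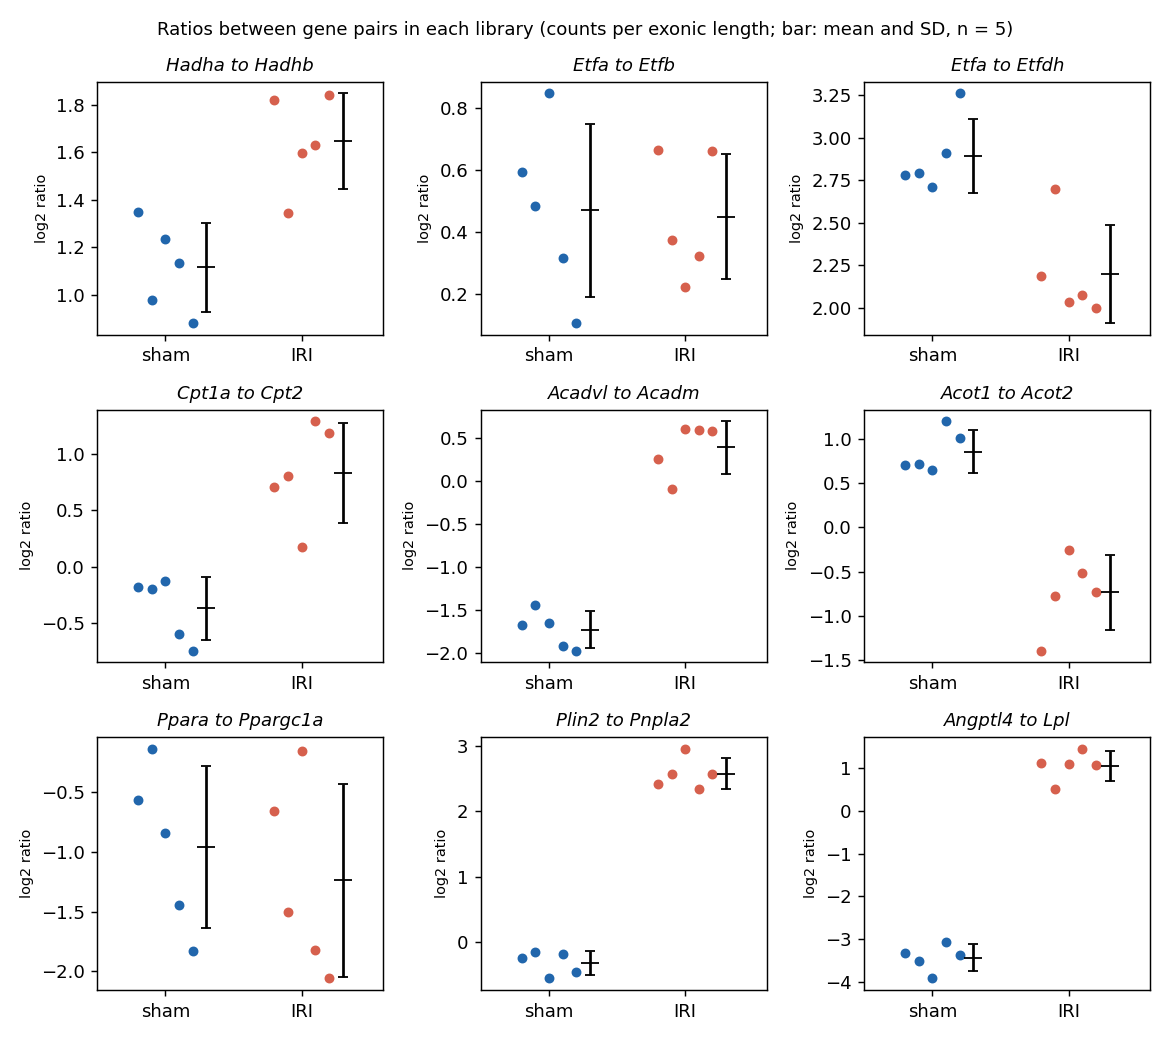
log2 ratio of counts per exonic length for 9 gene pairs in each library (blue sham, red IRI), with mean and SD of 5 libraries as black bars. The groups lie apart for 6 pairs, overlap slightly for Hadha to Hadhb, and overlap fully for Etfa to Etfb and Ppara to Ppargc1a.

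Promoter letters were read for the elements that these regulators are known to bind. PPARA with its partner RXR binds direct repeats of AGGTCA spaced by 1 base, and ESRRA binds a single such site with an extension before it. Windows from 250 bases before to 50 after the start (RefSeq, GRCm38.p6) were found for 31 of the 38 genes, in 34 windows. The direct repeat (AGGTCA, any 1 base, AGGTCA) with up to 2 mismatches, on either strand, occurred in 4 of 34 windows (11.8%) and in 3.88% of all 32851 windows of that length. The 4 genes were Plin2, Cd36, Etfa and Echs1, and none of the 34 windows held it without a mismatch (0.0639% of all windows did). The element TCAAGGTCA with up to 1 mismatch occurred in 1 of 34 windows (2.94%), that of Bdh1, and in 7.48% of all windows. The single site AGGTCA, which both longer motifs contain, searched with no mismatch on either strand, was in 7 of 34 windows (20.6%) and 16.3% of all. The stretches below are shown because they hold matches in a gene that rose (Plin2) and in genes that fell, each with 25 bases to either side, 5′ to 3′ on the gene's strand, with the match in capitals. The stretch of Echs1 is not printed because 10 of its bases lie in an annotated exon (GENCODE M21).
Plin2, chr4:86670247-86670309, minus strand: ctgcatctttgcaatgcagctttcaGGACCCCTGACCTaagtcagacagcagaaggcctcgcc
Cd36, chr5:17835922-17835984, minus strand: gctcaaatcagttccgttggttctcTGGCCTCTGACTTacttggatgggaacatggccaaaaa
Etfa, chr9:55512283-55512345, minus strand: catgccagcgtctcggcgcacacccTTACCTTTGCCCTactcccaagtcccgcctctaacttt
Bdh1, chr16:31422179-31422237, plus strand: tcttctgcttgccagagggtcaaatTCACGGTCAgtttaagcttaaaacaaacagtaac
In Plin2, Cd36 and Etfa the match reads as the reverse complement of the repeat. It begins 225 bases before the start in Plin2, 63 in Cd36, 77 in Etfa and 93 in Bdh1. A match of letters is a description of the sequence, and a window without one shows only that these letters are not in it. Of the 4 genes with the repeat, Plin2 was higher in IRI and the other 3 were lower.

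Beyond the 38 genes, 113 further genes of these pathways were listed, 112 were found in the table, and 95 passed the filter of 1 FPKM in 5 libraries. In IRI 23 rose and 56 fell, 16 had no call, and the median was -0.73 on the log2 scale. Over all genes 34.5% were higher and 32.4% lower. With library totals 25 were higher and 49 lower. Another 8 genes were listed with mitochondrial beta-oxidation, and not all encode enzymes of its steps. Of these, 6 were lower and 0 higher by edgeR, among them Acad12 (-2.97 ± 0.21), Tango2 (-1.23 ± 0.14) and Mlycd (-1.15 ± 0.12), which encodes malonyl-CoA decarboxylase. Of 5 tested genes of carnitine supply and other transferases, 3 were lower and 1 higher. Crot, the peroxisomal carnitine octanoyltransferase, had 114 ± 17.8 FPKM in sham and 25.4 ± 5.34 in IRI (log2 fold change -2.40 ± 0.18), Aldh9a1, of carnitine synthesis, had -1.84 ± 0.19, and Slc22a5, the carnitine transporter, had -1.21 ± 0.25. Ketone body genes had 5 of 6 lower and 1 higher, with Aacs (-2.74 ± 0.39), Bdh2 (-2.67 ± 0.32) and Acat1 (-2.29 ± 0.20) lowest.

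Peroxisomal beta-oxidation, which shortens very long and branched chains, had all 14 tested genes lower (10 under library totals). Amacr, the racemase for branched chains, had 122 ± 4.88 FPKM in sham and 11.7 ± 8.74 in IRI (log2 fold change -3.59 ± 0.42), and the branched-chain oxidases Acox2 (-3.22 ± 0.24) and Acox3 (-2.34 ± 0.23) followed. The other acyl-CoA synthetases and fatty acid transport proteins had 4 higher and 4 lower of 8 (34.5% and 32.4% of all genes). Slc27a2, a very-long-chain synthetase and transporter, had 1024 ± 82.8 FPKM in sham and 168 ± 88.8 in IRI (log2 fold change -2.83 ± 0.37), and Acsm5 had -3.20 ± 0.34. Acsbg1 rose by 3.49 ± 0.23, from a low level (0.214 ± 0.0885 FPKM in sham and 2.87 ± 0.297 in IRI). Other thioesterases had 2 higher and 5 lower of 8, with Acot11 (-1.85 ± 0.22), Acot3 (-1.84 ± 0.27) and Acot12 (-1.62 ± 0.26) lowest. From Crot to Acot12, the genes named here beyond the 38 had adjusted p-values between 2.55e-07 and 0.00106 (edgeR).

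Other PPAR and ERR regulators had 1 higher and 6 lower of 12 (34.5% and 32.4% of all genes). Hnf4a, a nuclear receptor of the proximal tubule, had 136 ± 16.8 FPKM in sham and 34.8 ± 23.2 in IRI (log2 fold change -2.19 ± 0.40, adjusted p = 0.000437, edgeR), followed by Lpin1 (-1.87 ± 0.21). Of 13 known targets of PPARA, some of which the other lists also hold, 5 were higher and 7 lower (34.5% and 32.4% of all genes). Pdk4, the kinase that restrains pyruvate dehydrogenase, had 9.65 ± 2.74 FPKM in sham and 95.5 ± 39.4 in IRI (log2 fold change 3.08 ± 0.33, adjusted p = 6.66e-06, edgeR). The fatty acid hydroxylase genes Cyp4a32 (-2.45 ± 0.42) and Cyp4a10 (-1.61 ± 0.30) were lower. With no filter on low values the median of the list went from -0.92 over 13 genes to 0.44 over 16, with 7 higher and 7 lower (19.3% and 18.0% of the 30454 genes then tested).

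Other lipid droplet and lipolysis genes had 6 higher and 6 lower of 16, close to the shares over all genes. Hilpda, which inhibits ATGL, had 1.76 ± 0.39 FPKM in sham and 12.6 ± 3.27 in IRI (log2 fold change 2.59 ± 0.24, adjusted p = 2.19e-06, edgeR), while Cideb (-2.32 ± 0.25) and Fitm1 (-2.28 ± 0.33) were lower. Other uptake and lipoprotein genes had 5 higher and 3 lower of 11 (34.5% and 32.4% of all genes). Scarb1, the high-density lipoprotein receptor, had 1.48 ± 0.11, Angptl8 had 1.67 ± 0.41, and Fabp7 had -2.29 ± 0.20 (adjusted p from 4.49e-07 to 0.00311, edgeR).

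The IRI libraries were not alike. On log2 CPM scaled by TMM factors, IRI replicate 3 was the highest IRI library for 13 of the 28 genes that fell and replicate 1 for 12, which left 3 to replicates 2 and 4. Replicates 4 and 5 were lowest for 10 each. Over all genes called lower, replicate 3 was highest for 39.6% and replicate 1 for 33.0%, while replicate 2 was lowest for 29.6%, replicate 5 for 27.1% and replicate 4 for 22.6%. Replicate 2 was lowest for 5 of the 28. Replicates 1 and 3 were high in different genes. In FPKM, replicate 3 led for Cpt2, Crat, Acadvl, Decr1 and Eci1, and replicate 1 for Acsm2, Acsm3 and Acad10. Proximal tubule markers summed to 1747 FPKM in replicate 1, 514 FPKM in replicate 3 and 271 to 680 FPKM in the others. Slc34a1 and Miox held the largest parts of that sum in replicate 1 (584 and 714 FPKM). Replicate 3 came second to replicate 1 in Lrp2, Slc5a2, Slc5a12, Slc22a6, Slc22a8, Slc13a3 and Atp11a. In Slc34a1, Miox, Cubn, Slc7a13 and Slc22a7, replicate 2 lay above replicate 3. The part of these markers in the order of libraries was not tested. Without replicate 1, 5 of the 38 genes were called higher and 28 lower, and without replicate 3 the counts were 5 higher and 30 lower.

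**Figure D4:**
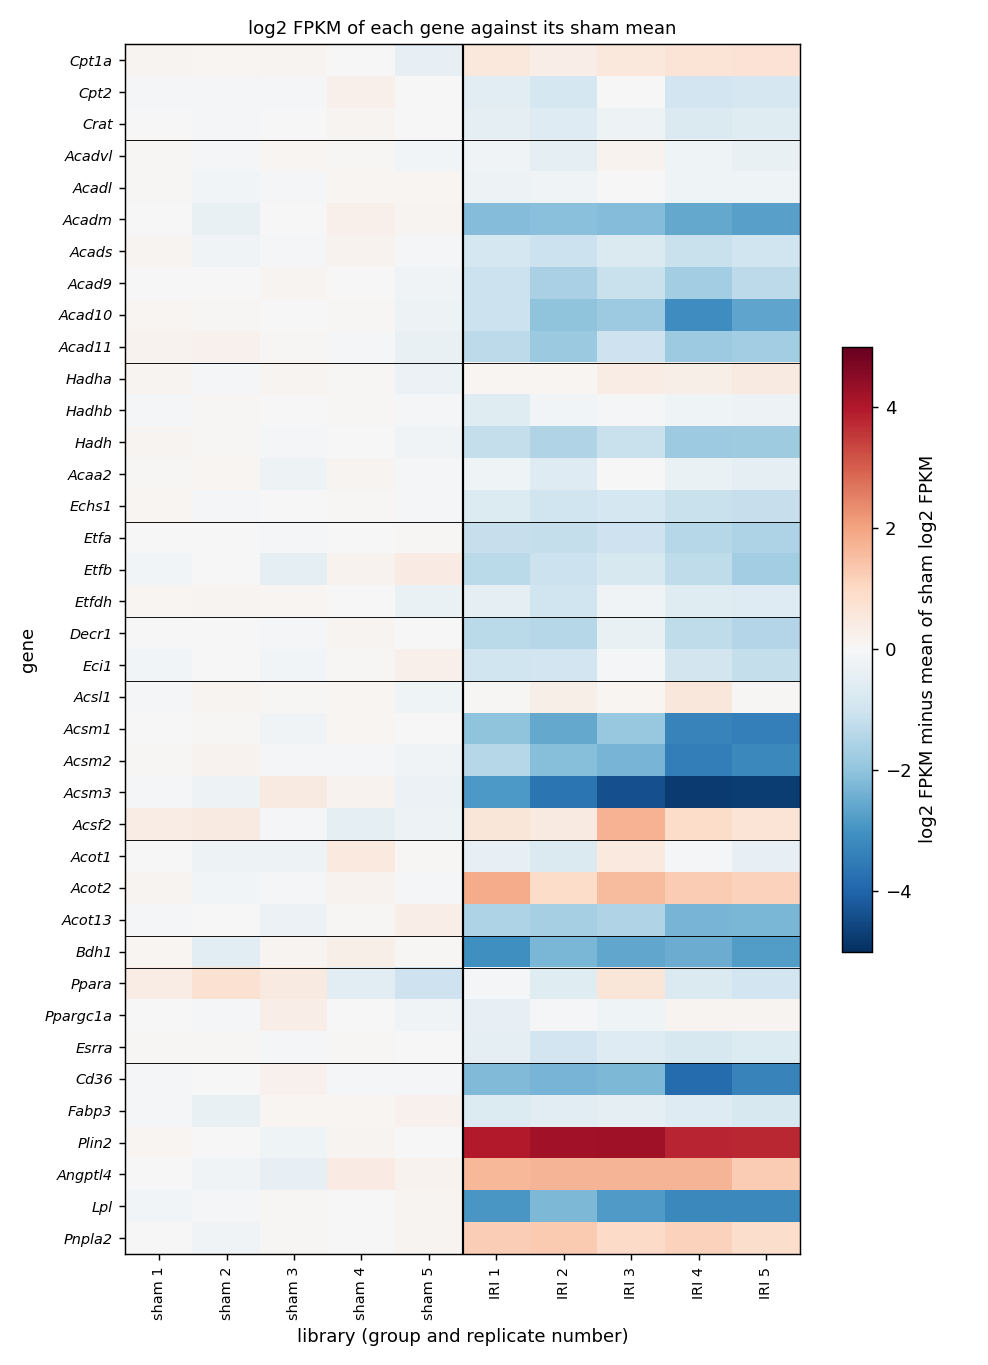
log2 FPKM of each gene in each library minus the mean log2 FPKM of the 5 sham libraries (colour; blue lower, red higher), with genes in rows by role and libraries in columns. IRI replicate 3 is paler than the other IRI libraries in Cpt2, Decr1 and Eci1, and replicate 1 in Acsm2 and Acsm3.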

How the data were processed

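Kidney mRNA was profiled in 10 libraries (5 sham, 5 IRI) made, per the labels' protocols, by oligo(dT) selection from 1 µg of total RNA and read as pairs of 150 bases. The authors deposited whole-number counts and FPKM per gene in 1 table. The submitters' processing notes name cutadapt 1.9.1, HISAT2 2.0.1, HTSeq 0.6.1 and GRCm39 without roles, and no source used here gives the strand setting. The deposited FPKM was recovered from the counts, the deposited exonic lengths and the column totals for 100% of values (tolerance 0.005 units or 0.1%). Symbols were matched by gene identifier for 52083 of 55359 genes, the 38 studied here among them.

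The quasi-likelihood test of edgeR 4.0.16 under R 4.3.3, with TMM factors, was run on counts of the 13324 genes that reached 1 FPKM in 5 libraries, and Benjamini-Hochberg adjustment covered all of them. Standard errors are the log2 fold change over the square root of F. FPKM carries no TMM factor, so a ratio of mean FPKM is not the fitted fold change. Ratios used counts plus 0.5. edgeR was tested on simulated data. The study genes, the other pathway lists, the markers and the pairs were chosen with earlier results of these data known. Library values are printed for genes called higher or not called, the 2 of largest fall in each role and genes in a ratio, and up to 3 called genes are named per other list, 1 of which is not reported here. Replicate numbers were not treated as pairs. Alternatives were other scalings, filters, tests (DESeq2 1.42.0, limma 3.58.1), thresholds, a replicate block and leaving out each library. Depth ran from 13147899 to 18603272 counts, and how far it limits precision was not tested. Libraries of 1 group differed from each other by more than sampling of reads gives (chi-square over its degrees of freedom, 7.96 to 88.9), which does not show that they came from separate mice. Promoter windows are RefSeq's (GRCm38.p6), and transcripts for shared stretches are GENCODE's (M21). Coordinates of genes are the deposited ones.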

Additional observations from a re-analysis of the deposited data

Results flagged for a closer look

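Within each group of 5 libraries, a library was singled out where its gap to the nearest other library exceeded Dixon's 95% critical value as a share of the group's range. Chance does so in about 1 in 20 groups. It happened 12 times in the 94 groups examined (38 genes and 9 ratios in both groups).

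IRI replicate 3 stood above the other IRI libraries in 4 genes. Decr1 was at 50.9 FPKM there, against 23.9 to 27.4 in the others. Eci1 was at 33.1 FPKM, against 15.0 to 18.1. Acadl was at 195.9 FPKM, against 161 to 169.7, and Acsf2 at 13.7 FPKM, against 5.61 to 7.78. IRI replicate 5 was low in Angptl4 (34.3 FPKM, against 44.3 to 45.9). IRI replicate 2 had a log2 ratio of Etfa to Etfdh of 2.70, against 2.00 to 2.19.

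Among sham libraries, replicate 5 was low in Cpt1a (37.7 FPKM, against 50.7 to 54.9), Acad10 (12.2 FPKM, against 14.6 to 15.3) and Etfdh (19.8 FPKM, against 24.9 to 27.0). Replicate 3 was high in Cd36 (176 FPKM, against 142 to 148) and Ppargc1a (12.3 FPKM, against 8.60 to 9.58), and replicate 4 in Cpt2 (76.9 FPKM, against 59.5 to 63.1). Sham replicate 3 also had the highest sum of fat markers, 11.1 FPKM, against 0.0800 to 4.04 in the other sham libraries, and the part of these in its Cd36 level was not tested.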

How the results depend on the processing

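No called gene among the 38 changed sign under any alternative run; the uncalled Acsl1 (0.22 under library totals) and Hadha (-0.01 under DESeq2, for example) did. The counts of called genes among them were 4 to 7 higher and 25 to 30 lower over all settings, and 4 to 6 and 28 to 30 with single libraries left out. DESeq2, other size factors in edgeR (RLE) and no filter on low values left all 38 calls as they were. Library totals gave 7 higher and 25 lower, and limma on log2(FPKM + 1) the same counts. Libraries with the same replicate number did not deviate together (correlations -0.247 to 0.057, none best with its own number). With the replicate number as a block the counts were 4 higher and 29 lower, Acsf2 losing its call (0.63, adjusted p = 0.0689) and Ppara gaining one (-0.61, adjusted p = 0.0421), and over all genes 4221 higher and 4097 lower against 4599 and 4320. A filter of 5 FPKM left 7944 genes tested, with 3044 higher and 2842 lower. Under the 1 FPKM filter, leaving out single libraries gave 4182 to 4550 higher and 3906 to 4250 lower genes. Library totals gave 6311 higher and 3149 lower genes.

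With group medians in place of means the test is void: 12 of the 252 assignments give the same difference of medians even when the groups lie fully apart, so the exact permutation p is at least 0.0476. The 7 called ratios then had adjusted p = 0.0612 each, which follows from that limit and says nothing about their stability: Acadvl to Acadm (2.26), Acot1 to Acot2 (-1.45), Angptl4 to Lpl (4.47), Cpt1a to Cpt2 (1.00), Etfa to Etfdh (-0.72), Hadha to Hadhb (0.50) and Plin2 to Pnpla2 (2.81). Leaving out single libraries or using log2(FPKM + 1) changed no call of a ratio. Counting error, as a share of the value, is largest at the lowest count, which was 134 (Acsf2), and whether depth limits any call was not tested.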
